A study of Mus musculus with 2 samples.

Results

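The genes described here are 36 cell cycle and mitosis genes, chosen by gene symbol from the 32285 genes of the count tables, and every member was found and had at least 1 UMI in the kept cells of both libraries. They were read in single-cell RNA sequencing of mouse liver, as unique molecular identifiers (UMIs, each standing for 1 captured transcript tag), in 2 libraries, 1 for each group. For WT, the source was liver of control mice, labelled CTRL, whose floxed alleles, if any, are not given in the labels. The N-LKO library came from liver plus tumor of mice in which Cre recombinase, driven by the albumin promoter and so active in hepatocytes, deleted the first exon of Nus1, the gene for the Nogo-B receptor (NgBR). Both groups were male, on the C57BL6 background, and were fed the fat-rich diet for 16 weeks, which the titles name HFD and the treatment labels name WD. Hepatocytes and non-parenchymal cells were purified apart and mixed in equal parts, with a smaller part of tumor cells added in N-LKO only, so the shares of cell types were set partly by this mixing. How many mice entered each library was not given in the sources used here. Genotype, tumor tissue and library differed together, so their parts in any difference below cannot be told apart.

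A dividing cell copies its DNA in S phase and parts the copies in mitosis. Passage from G1 into S phase is driven by cyclins D and E with their kinases, which release E2F factors from the retinoblastoma protein. Mitotic entry is driven by Cdk1 with cyclins A and B, and the genes of that phase are switched on late in the cycle, many through CCAAT boxes bound by NF-Y and through the cell cycle genes homology region bound by MuvB complexes. Most hepatocytes of an adult liver rest outside the cycle and can re-enter it after injury. The members were taken in 4 groups by role. 20 act in mitosis, 11 in DNA replication and repair, 4 (Ccnd1, Ccne1, Ccne2 and Cdk2) at the G1 to S transition, and Stmn1, which destabilizes microtubules, stood alone.

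RefSeq promoter sequences (build GRCm38.p6, from 250 bases before to 50 bases after the start) were found for 30 of the 36 members. A CCAAT box (CCAAT on either strand) lay in 82.4% of the 17 mitosis promoters and 81.8% of the 11 replication promoters, against 37.4% of all 32851 promoters of the table. The homology element (TTTGAA or TTCGAA on either strand) lay in 82.4% of the mitosis promoters, in 1 of the 11 replication promoters (Mcm2) and in 19.2% of all promoters. An E2F element (TTTCCCGC or TTTGGCGC on either strand) lay in 5 of the 11 replication promoters, 1 of the 17 mitosis promoters (Kif15) and 1.56% of all promoters. CCAAT box and homology element occurred together in 12 of 17 mitosis promoters (70.6%), against 7.52% of all. No matches overlapped in the member promoters. These are matches of letters, not measured binding.

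The promoters of 6 members are printed to show this contrast, 4 of mitosis genes and 2 of replication genes, as the 250 bases before the start, 5′ to 3′ on the gene's strand, with the motifs in capitals. All 6 genes lie on the minus strand of GRCm38.p6. Mki67, the gene of the proliferation antigen Ki-67, has its window at chr7:135716380-135716629. Top2a, topoisomerase II alpha, has it at chr11:99024190-99024439. Cdk1, the mitotic kinase, has it at chr10:69352913-69353162, and Ccnb2, a mitotic cyclin, at chr9:70421555-70421804.
Mki67: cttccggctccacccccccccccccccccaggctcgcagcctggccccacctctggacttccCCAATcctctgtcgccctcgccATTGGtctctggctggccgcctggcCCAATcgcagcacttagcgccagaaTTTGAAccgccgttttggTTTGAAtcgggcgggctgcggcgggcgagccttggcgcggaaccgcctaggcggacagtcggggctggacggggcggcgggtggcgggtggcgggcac
Top2a: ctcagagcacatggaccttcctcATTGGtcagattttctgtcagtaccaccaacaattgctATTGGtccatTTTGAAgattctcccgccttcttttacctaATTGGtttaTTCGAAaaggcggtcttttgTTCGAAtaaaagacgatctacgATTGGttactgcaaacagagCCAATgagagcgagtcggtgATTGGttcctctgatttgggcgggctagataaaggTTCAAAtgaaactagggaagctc
Cdk1: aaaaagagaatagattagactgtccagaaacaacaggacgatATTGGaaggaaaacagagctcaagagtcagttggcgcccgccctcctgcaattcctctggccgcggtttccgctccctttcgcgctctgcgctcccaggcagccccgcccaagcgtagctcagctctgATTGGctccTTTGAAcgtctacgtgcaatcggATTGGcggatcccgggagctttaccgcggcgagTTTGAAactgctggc
Ccnb2: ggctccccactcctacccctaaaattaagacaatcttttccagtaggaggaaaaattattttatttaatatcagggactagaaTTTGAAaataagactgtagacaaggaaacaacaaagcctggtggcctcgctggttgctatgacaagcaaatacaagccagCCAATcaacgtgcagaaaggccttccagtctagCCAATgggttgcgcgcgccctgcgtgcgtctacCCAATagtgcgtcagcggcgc
Each of the 4 windows holds both CCAAT boxes and the homology element, and Top2a holds 6 CCAAT boxes. The replication pair is Mcm6, a subunit of the replicative helicase, at chr1:128359706-128359955, and Pola1, the catalytic subunit of DNA polymerase alpha, at chrX:93632156-93632405.
Mcm6: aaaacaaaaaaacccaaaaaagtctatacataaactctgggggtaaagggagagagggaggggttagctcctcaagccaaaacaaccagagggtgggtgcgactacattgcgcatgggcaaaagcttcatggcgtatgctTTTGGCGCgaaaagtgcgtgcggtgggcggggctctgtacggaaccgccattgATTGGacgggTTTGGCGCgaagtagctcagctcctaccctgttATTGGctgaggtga
Pola1: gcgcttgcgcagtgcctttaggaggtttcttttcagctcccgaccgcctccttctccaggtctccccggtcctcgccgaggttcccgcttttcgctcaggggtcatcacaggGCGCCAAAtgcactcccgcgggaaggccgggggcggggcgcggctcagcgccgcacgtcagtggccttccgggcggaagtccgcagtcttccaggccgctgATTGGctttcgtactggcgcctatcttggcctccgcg
Both hold CCAAT boxes and the E2F element, and neither holds the homology element in this window.

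After filtering, 18433 WT cells with 29070763 UMIs (median 1401 per cell) and 19850 N-LKO cells with 33205041 UMIs (median 1454) remained, in 22 clusters. Cell classes were named from marker genes, with all cell cycle genes left out of the clustering, so no member shaped a class. The libraries shared 2499 barcodes, of which 122 were kept in both, and leaving shared barcodes out moved none of the 28 results by more than counting error. Nus1 was lower in N-LKO hepatocyte-like cells (38.9 CPM, counts of UMIs scaled to 1000000 per class and library) than in WT (73.5 CPM), but also in T/NK-like cells (42.9 against 79.4 CPM), and the tags lie outside the deleted exon, so this does not check the deletion. With 1 library per group no difference has a replicate check. All intervals are 95% and cover counting error only, and ratios are log2 of N-LKO over WT with 0.5 UMI added. In bulk sums such as these, fewer cells with a transcript and less RNA per cell cannot be told apart.

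Over all kept cells, the mitosis genes were higher in N-LKO as a group. Their summed level was 144.9 CPM in WT and 248.6 in N-LKO, for a log2 ratio of 0.78 (0.73 to 0.83). All 20 lay above 0 with intervals excluding 0, and their median log2 ratio was 0.77, beside 0.34 over all 17057 genes with at least 20 UMIs. The 11 replication genes differed less, with summed levels of 148.9 and 186.0 CPM, a log2 ratio of 0.32 (0.27 to 0.38), and a median of 0.30 that was close to that of all genes. At least 2-fold higher were 5 of the 36 members, against 15.9% of all genes, and 0 were 2-fold lower, against 5.22%. The share of members past 2-fold was thus near the background. When cells with over 10% mitochondrial UMIs were also left out, which kept 3932 WT and 2853 N-LKO cells, the mitosis ratio was 0.21 and the replication ratio -0.24.

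The 5 members past 2-fold were all mitosis genes. Cenpe, a motor protein that carries chromosomes to the spindle equator, was at 4.89 CPM (142 UMIs) in WT and 11.7 CPM (388 UMIs) in N-LKO, for a log2 ratio of 1.25 (0.98 to 1.55). Kif20b, a kinesin of cytokinesis, was at 4.95 CPM in WT and 11.5 in N-LKO, a ratio of 1.22 (0.94 to 1.51). Plk1, a kinase that acts from mitotic entry to exit, was at 1.48 and 3.43 CPM, a ratio of 1.20 (0.70 to 1.76). For all 3 the lower bound of the interval lay under 2-fold. Cenpf, a kinetochore protein, had 9.22 and 19.1 CPM, a ratio of 1.05 (0.84 to 1.26). Tpx2, which activates Aurora A on the spindle, had 6.64 and 13.6 CPM, a ratio of 1.03 (0.79 to 1.29).

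Of 7 members reported in full whatever they showed, Mki67 (ENSMUSG00000031004) had 593 UMIs in WT and 1246 in N-LKO, 20.4 and 37.5 CPM, a log2 ratio of 0.88. Top2a (ENSMUSG00000020914) had 29.2 CPM in WT and 47.7 in N-LKO, a ratio of 0.71. Cdk1 (ENSMUSG00000019942) had 4.37 and 6.72 CPM, a ratio of 0.62. All 3, whose promoters are printed above, were on the side of N-LKO with intervals clear of 0. Ccnb1 (ENSMUSG00000041431), cyclin B1, had 2.55 and 4.94 CPM, a ratio of 0.95. Stmn1 (ENSMUSG00000028832) had 27.4 and 48.1 CPM, a ratio of 0.81. Ccnd1 (ENSMUSG00000070348), cyclin D1, had 60.3 and 78.2 CPM, a ratio of 0.37, and Pcna (ENSMUSG00000027342), the sliding clamp of DNA polymerases, had 40.3 and 44.6 CPM, a ratio of 0.15 (0.03 to 0.26). Both ratios were negative when cells over 10% mitochondrial UMIs were left out, at -0.45 and -0.30. Of the rest, the lowest was Ccne2, cyclin E2, at -0.03, and the other members lay between 0.03 (Rrm2) and 0.86 (Bub1).

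**Figure D1:**
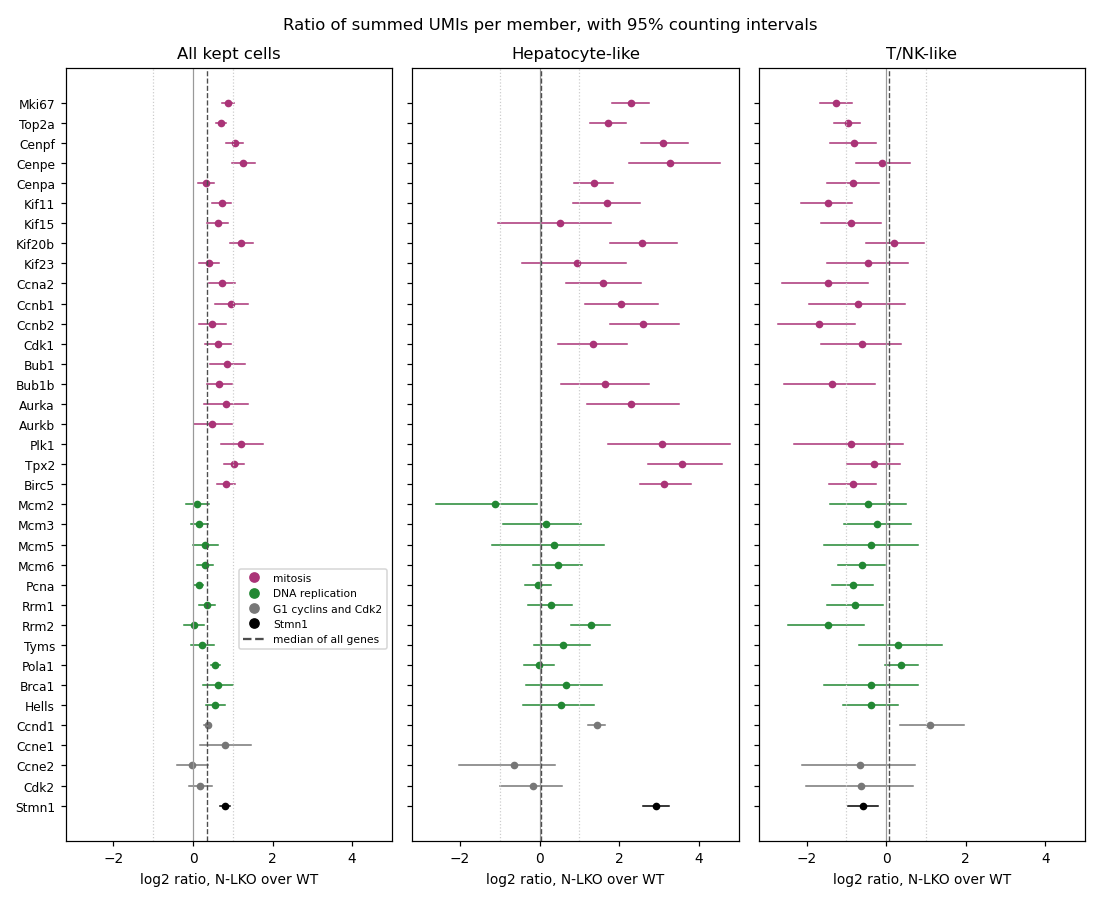
Log2 ratio of N-LKO over WT for each member (rows) in all kept cells, hepatocyte-like and T/NK-like cells (panels), with 95% counting intervals as bars and the median of all genes as a dashed line. Members with under 20 UMIs in a class are not drawn, dotted lines mark 2-fold, and mitosis genes lie right of 0 in the first 2 panels and mostly left of it in the third.

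Genes of the same pathway outside the members were followed through lists. Of 73 further mitosis genes, 28 were at least 2-fold higher in N-LKO over all kept cells and 0 lower, with a median of 0.87. Of all genes, 15.9% were 2-fold higher and 5.22% lower. Troap (2.07), Cdc25c (1.90) and Gtse1 (1.79) had the highest log2 ratios, each from under 15 WT UMIs. Spc24 (-0.95), Cks2 (-0.69) and Cks1b (-0.25) had the lowest. Of 36 further replication genes, 2 were 2-fold higher (Cdc6 at 1.43 and E2f8 at 1.21) and Mcm10 alone was 2-fold lower, with 28.0 CPM in WT against 9.67 in N-LKO. Neither share exceeded that of all genes. Orc1, of the origin recognition complex, was just under the 2-fold line at 1.00, and Tk1, thymidine kinase, was at -0.30.

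The 10 further genes of the G1 phase held the largest single difference of these lists by level. Ccnd3, cyclin D3, was at 57.3 CPM in WT and 220.1 in N-LKO, for a log2 ratio of 1.94, and its partner Cdk6 was at 50.8 and 109.0 CPM, a ratio of 1.10. E2f3 followed at 0.91. The ratios were 0.30 for Ccnd2, 0.15 for E2f4 and 0.13 for both Ccng1 and Cdk4. Of 19 genes listed as inhibitors and repressors of the cycle, 2 were 2-fold higher, a share under the 15.9% of all genes. Gadd45b, a stress-induced inhibitor, had a ratio of 1.85. Cdkn1a, the gene of the kinase inhibitor p21, was at 25.3 CPM in WT and 86.7 in N-LKO, a ratio of 1.78 (1.66 to 1.90). Lin9 had 0.93, Rb1 0.69 and Trp53 0.51, while Cdkn2a (-0.30), Btg1 (-0.06) and Cdkn1c (0.00) were lowest. Lin9 belongs to the MuvB core, which also takes part in switching mitosis genes on, so it is not only a repressor.

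The class that contributed most to the WT cells was also the one where the mitosis sum differed most. Hepatocyte-like cells, 8747 in WT and 2073 in N-LKO, carried a summed mitosis level of 35.6 CPM (546 UMIs) in WT and 162.1 CPM (746 UMIs) in N-LKO, a 4.56-fold difference and a log2 ratio of 2.19 (2.03 to 2.35). Of the 33 members with at least 20 UMIs, 19 were 2-fold higher, against 7.41% of all genes, and 1 was 2-fold lower, against 5.47%. 16 of these 19 were mitosis genes, out of 18 measured, and all 18 had a positive ratio. The median was 2.17 for the mitosis genes, beside 0.03 over all 13056 genes. In barcodes under 500 UMIs, the same sum was 31.4 CPM in WT and 77.1 in N-LKO. These barcodes were taken to hold mostly free RNA, which was not tested. The WT hepatocyte-like level was near that of these barcodes and the N-LKO level was above it.

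By gene, the largest ratio was that of Tpx2, with 14 UMIs (0.91 CPM) in WT and 51 UMIs (11.1 CPM) in N-LKO, for a log2 ratio of 3.57 (2.73 to 4.57). Cenpe had 10 and 30 UMIs, 0.65 and 6.52 CPM, a ratio of 3.28. Birc5, the gene of survivin, had 30 and 79 UMIs, 1.95 and 17.2 CPM, a ratio of 3.12. WT had far more hepatocyte-like cells, so the UMI numbers are less far apart than the levels. Cenpf had 2.35 CPM in WT and 20.4 in N-LKO, a ratio of 3.11. Plk1 had 6 and 16 UMIs, 0.39 and 3.48 CPM, a ratio of 3.08 (1.73 to 4.80). The mitotic cyclins Ccnb2, Ccnb1 and Ccna2 had ratios of 2.60, 2.05 and 1.60. Their kinase Cdk1 had 29 and 22 UMIs, 1.89 and 4.78 CPM, a ratio of 1.35 (0.47 to 2.19), lower than most of its partners but with a wide interval, and it was -1.88 with at most 10% mitochondrial UMIs.

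Mki67 in these cells had 67 UMIs (4.36 CPM) in WT and 98 UMIs (21.3 CPM) in N-LKO, a ratio of 2.28 (1.82 to 2.76). Top2a had 87 and 86 UMIs, 5.67 and 18.7 CPM, a ratio of 1.72 (1.28 to 2.17). Ccnb1 had 20 and 25 UMIs, 1.30 and 5.43 CPM. Every one of these was higher in N-LKO by level. Kif20b (2.57) and Aurka, the spindle pole kinase Aurora A (2.30), followed, then Kif11, the motor that parts the spindle poles (1.68), Bub1b of the spindle checkpoint (1.65) and Cenpa, the centromeric histone (1.36). Kif15 (0.52) and Kif23 (0.94), both motor proteins, did not reach 2-fold and their intervals included 0. Bub1 and Aurkb had under 20 UMIs and were not counted.

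Replication genes did not share this difference in hepatocyte-like cells. Their sum was 73.3 CPM in WT and 86.7 in N-LKO, for a log2 ratio of 0.24 (0.07 to 0.41), beside 69.3 and 67.7 CPM in barcodes under 500 UMIs. This ratio was -0.063 with at most 10% mitochondrial UMIs and -0.18 in the cluster that held most N-LKO cells of the class. In that cluster the mitosis sum differed little too, at 149.0 CPM in WT and 163.1 in N-LKO cells. Rrm2, the small subunit of ribonucleotide reductase, was the 1 of 11 that was 2-fold higher, at 5.60 CPM (86 UMIs) in WT and 13.7 CPM (63 UMIs) in N-LKO, a ratio of 1.29 (0.80 to 1.78). Mcm2, a helicase subunit, was 2-fold lower, at 3.52 CPM (54 UMIs) in WT and 1.52 CPM (7 UMIs) in N-LKO, a ratio of -1.12 (-2.59 to -0.07). Pcna was level at 22.3 and 21.7 CPM, and Pola1 at 17.3 and 17.2 CPM. Over the whole class, the intervals of the mitosis and replication ratios did not overlap. These intervals take UMIs as independent. They do not cover the gathering of UMIs in single cells or the differing clusters of the 2 libraries.

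Of the remaining members, Ccnd1 was at 25.1 CPM (385 UMIs) in WT and 67.6 CPM (311 UMIs) in N-LKO hepatocyte-like cells, a ratio of 1.43 (1.21 to 1.65). Stmn1 was at 7.49 CPM (115 UMIs) and 56.7 CPM (261 UMIs), a ratio of 2.92 (2.60 to 3.25). Both rested on more UMIs than any single mitosis gene, and their intervals were narrower. Both differed less within the cluster that held most N-LKO cells of the class. There Stmn1 was at 52.9 CPM in WT and 57.4 in N-LKO, and Ccnd1 at 52.9 and 68.1 CPM. In the whole class, Cdk2 (-0.16) and Ccne2 (-0.65) had intervals that included 0, and Ccne1 had under 20 UMIs.

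The clusters that make up the class differed between the libraries. Cluster 0, led by Ccdc152, Ncam2 and Crp, held 8147 WT and 66 N-LKO cells, and cluster 5, led by Dnajc12, A2ml1 and Serpina1e, held 108 WT and 2001 N-LKO cells. The mitosis sum was 35.3 CPM (32.3 to 38.6) in WT cells of cluster 0, 149.0 CPM (101.3 to 211.6, from 31 UMIs) in WT cells of cluster 5 and 163.1 CPM (151.5 to 175.4) in N-LKO cells of cluster 5. Within cluster 5 alone the log2 ratio was 0.11 (-0.39 to 0.70), and Mki67 (-0.02), Top2a (-1.20) and Ccnb1 (-1.07) had ratios below 0 with intervals that included 0. In cluster 0 the 66 N-LKO cells had 96.8 CPM (49.99 to 169.0, from 12 UMIs), an interval that did not overlap that of the WT cells there. That interval takes UMIs as independent and does not cover their gathering in single cells. Counted by cell after thinning as described below, 2 of these 66 cells (3.03%, 0.369 to 10.5) held at least 2 different mitosis members. In WT cells of cluster 0 the share was 0.209% (0.122 to 0.334), so the N-LKO values there rest on few cells. Clusters 18 and 20, nearly all WT, had 15.5 and 8.82 CPM. Among the 2 clusters that scored highest for hepatocyte markers but stayed unnamed, 2066 N-LKO cells had 143.0 CPM and 1220 WT cells had 71.4 CPM, and adding both clusters to the class gave a ratio of 1.98.

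**Figure D2:**
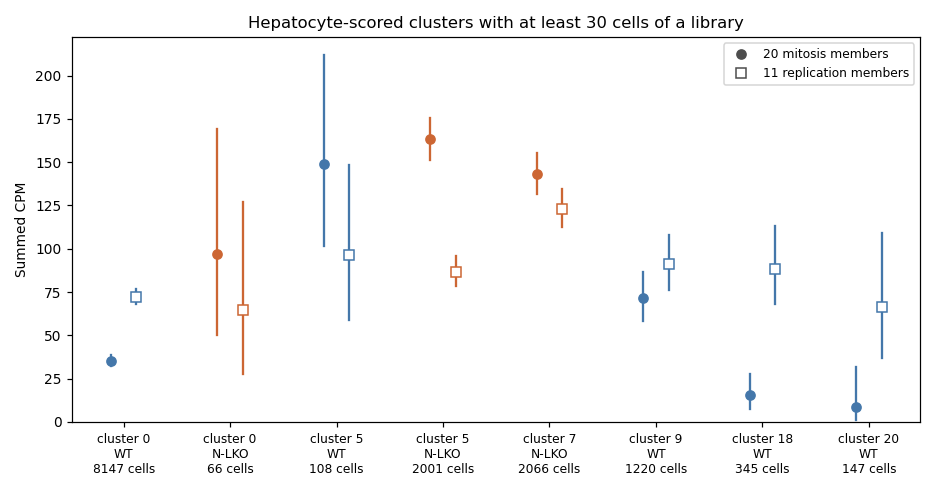
Summed CPM of the 20 mitosis members (filled circles) and the 11 replication members (open squares) in each hepatocyte-scored cluster and library with at least 30 cells, WT in blue and N-LKO in orange, with 95% counting intervals. Mitosis levels lie at 35.3 in WT cells of cluster 0, and at 149.0 and 163.1 in WT and N-LKO cells of cluster 5.

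Marker lists were read beside these levels. The hepatocyte markers summed to 47290 CPM in WT and 47340 in N-LKO cells of the class. Of the 13 lists for other cell types, 7 were higher in N-LKO and 1, that of neutrophils (16.6 and 43.2 CPM), was 2-fold higher, with a median log2 ratio of 0.04 and summed levels of 5.67 to 657.3 CPM in WT and 7.17 to 795.5 CPM in N-LKO. Klra8 of the NK list and Tnfrsf17 of the plasma list were at 0 in N-LKO, and Cldn4 of the cholangiocyte list was at 0 in WT.

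Further mitosis genes outside the members showed the same direction in hepatocyte-like cells, with 33 of 51 measured at least 2-fold higher, 0 lower and a median of 1.57. Of all genes in these cells, 7.41% were 2-fold higher and 5.47% lower. Hmmr, a spindle-associated protein, had 22 UMIs (1.43 CPM) in WT and 86 UMIs (18.7 CPM) in N-LKO, a ratio of 3.68 (3.02 to 4.45). Esco2 (3.56) and Dlgap5 (3.27) came next, and Cit (-0.23), Ccnf (-0.23) and Cks1b (-0.02) were lowest. Within clusters the libraries were close for the sum of this list. In cluster 0 it was 198.4 CPM in WT and 201.6 CPM (25 UMIs) in N-LKO. In cluster 5 it was 471.2 CPM (98 UMIs) in WT and 456.2 CPM in N-LKO. In the whole class, 6 of 29 further replication genes measured were 2-fold higher and 0 lower. Pold1 (2.13), E2f8 (1.82) and Asf1b (1.62) were highest on 20 to 35 UMIs each, and Mcm10 (-0.81), Clspn (-0.38) and Slbp (-0.25) were lowest.

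Genes of the inhibitor list differed too. Cdkn1a had 249 UMIs (16.2 CPM) in WT and 666 UMIs (144.7 CPM) in N-LKO hepatocyte-like cells, a ratio of 3.16 (2.95 to 3.37). Cdkn2c, an inhibitor of the cyclin D kinases, had 2.48 and 12.8 CPM, a ratio of 2.37, and Gadd45b a ratio of 2.08. Altogether 6 of 17 measured were 2-fold higher, against 7.41% of all genes, and 0 lower, against 5.47%. Btg1 (-0.84), Lin9 (-0.56) and Rbl2 (-0.43) were lowest. Of 9 measured genes of the G1 list only Myc was 2-fold higher, with 1.95 and 4.35 CPM, a ratio of 1.16. Ccnd3 (0.88) and Ccng1 (0.70) followed, then Cdk6 (0.35), Cdk4 (0.23) and Ccng2 (0.12), with E2f4 (-0.02) and Ccnd2 (-0.03) lowest. From the inhibitor list, Trp53 had a ratio of 0.46 and Rb1 of -0.10.

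T/NK-like cells, 1017 in WT and 1183 in N-LKO, had a lower mitosis level in N-LKO. Their mitosis sum was 706.1 CPM in WT, above that of hepatocyte-like cells of either library, and 376.2 CPM in N-LKO, for a log2 ratio of -0.91 (-1.06 to -0.76). Of 32 members measured, 6 were 2-fold lower, against 8.04% of all genes, and 1 was higher, against 13.3%. Intervals lay below 0 for 15 members and above 0 for Ccnd1 alone. The median was -0.83 for the 17 mitosis genes measured and -0.39 for the 11 replication genes. Of 53 further mitosis genes, 16 were 2-fold lower and 0 higher.

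Mki67 had 148 UMIs (115.2 CPM) in WT and 81 UMIs (48.2 CPM) in N-LKO T/NK-like cells, a ratio of -1.25 (-1.67 to -0.86). Top2a had 151.8 and 77.4 CPM, a ratio of -0.97 (-1.30 to -0.64), just inside 2-fold. Ccnb2 had 27.3 and 8.33 CPM, a ratio of -1.68 (-2.72 to -0.78). These were the reverse of the hepatocyte-like values for the same genes. Ccna2 (-1.47), Kif11 (-1.46), Rrm2 (-1.46) and Bub1b (-1.36) were the other members 2-fold lower. Ccnd1 had 19 UMIs (14.8 CPM) in WT and 54 UMIs (32.1 CPM) in N-LKO, a ratio of 1.10 (0.34 to 1.96). Stmn1 (-0.58) and Pcna (-0.84) had intervals below 0, while those of Cdk1 (-0.62) and Ccnb1 (-0.70) included it.

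The markers that name this class moved in the same direction. The T cell list summed to 1375 CPM in WT and 801.1 in N-LKO and the NK list to 548.1 and 323.2 CPM, while 10 of the 12 other lists were higher in N-LKO, with a median log2 ratio of 0.64. Hepatocyte markers stood at 16060 CPM in WT and 13040 in N-LKO. The part of this shift in the lower mitosis level was not tested. The class also changed with its filter. At a minimum of 500 UMIs per cell it held 3139 WT and 3199 N-LKO cells, 1 member was 2-fold lower, and the ratio was -0.49. No class took this name when cells had to hold 2000 UMIs or at most 10% mitochondrial UMIs.

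Dendritic-like cells, 178 in WT and 404 in N-LKO, had the highest mitosis level of all classes in both libraries, at 738.4 CPM in WT and 1049 in N-LKO, for a log2 ratio of 0.50 (0.29 to 0.73). Of 23 members measured, 2 were 2-fold higher, against 9.31% of all genes, and 0 lower, against 6.72%. Top2a had 32 UMIs (110.9 CPM) in WT and 184 UMIs (252.4 CPM) in N-LKO, a ratio of 1.17 (0.64 to 1.78). Mcm3, a helicase subunit, had 6 and 39 UMIs, 20.8 and 53.5 CPM, a ratio of 1.27 (0.11 to 2.89). Mki67 had 104.0 and 178.3 CPM, a ratio of 0.76 (0.20 to 1.40). The 2-fold share was near the background, and the summed ratio was 0.11 at a minimum of 2000 UMIs and 1.27 with at most 10% mitochondrial UMIs. The dendritic cell list summed to 1699 CPM in WT and 1361 in N-LKO, while 9 of the 13 other lists were higher in N-LKO and 3 of them past 2-fold, and the part of this in the mitosis level was not tested. Replication genes were level here, at 502.7 and 519.9 CPM, and so was Ccnd1, at 156.0 and 156.4 CPM.

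Macrophage-like, monocyte-like and endothelial-like cells differed little in the members. In macrophage-like cells, 1668 in WT and 3572 in N-LKO, the mitosis sum was 307.9 and 297.0 CPM, a ratio of -0.05 (-0.18 to 0.07). There 2 of 34 measured members were 2-fold higher, against 6.47% of all genes, and 3 lower, against 5.99%. The higher were Ccnb1 (1.10) and Plk1 (1.02), and the lower Ccne2 (-1.36), Kif23 (-1.18) and Tyms, thymidylate synthase (-1.12). Kif23, a motor of cytokinesis, had 77 UMIs (31.6 CPM) in WT and 81 UMIs (14.0 CPM) in N-LKO. Replication genes and Ccnd1 had negative ratios in these cells, at -0.30 (-0.43 to -0.16) for the sum and -0.69 (-0.94 to -0.43) for Ccnd1.

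In monocyte-like cells the mitosis members held 251 UMIs in WT and 749 in N-LKO (312.1 CPM), a ratio of 0.32 (0.11 to 0.53), although 7 of the 12 mitosis genes measured lay below 0 and their median was -0.11. Of 24 members, 1 was 2-fold higher, against 5.53% of all genes, and 0 lower, against 7.30%. It was Birc5, with 6 UMIs (5.98 CPM) in WT and 51 UMIs (21.3 CPM) in N-LKO, a ratio of 1.73 (0.61 to 3.34). In endothelial-like cells the sum was 209.6 and 245.7 CPM, a ratio of 0.23 (0.07 to 0.39). Of 32 members, 3 were 2-fold higher, against 12.8% of all genes, and 0 lower, against 7.09%. Ccna2 had 8 and 39 UMIs, a ratio of 1.67 (0.62 to 3.05), and Kif20b had 13 and 43 UMIs, a ratio of 1.15 (0.26 to 2.20). The third, Bub1, had 21 UMIs in all and an interval that included 0.

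The smaller classes were compared by their sums alone. The mitosis ratio was 0.57 (0.22 to 0.96) in B-like cells, 0.72 (0.16 to 1.36) in cholangiocyte-like cells and 1.83 (0.90 to 3.08, from 9 WT UMIs) in plasmacytoid dendritic-like cells. It was 0.16 in hepatic stellate-like, -0.01 in erythroid-like and -0.36 in plasma-like cells, with intervals that included 0. Neutrophil-like cells had 339.8 CPM (55 UMIs) in WT and 185.8 CPM (211 UMIs) in N-LKO, a ratio of -0.88 (-1.31 to -0.42). Their own marker list was also lower, at 14300 CPM in WT and 9689 in N-LKO, with 6 of the 13 other lists higher, and its part in the mitosis level was not tested. Clusters with markers of more than 1 type had a ratio of -0.17.

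**Figure D3:**
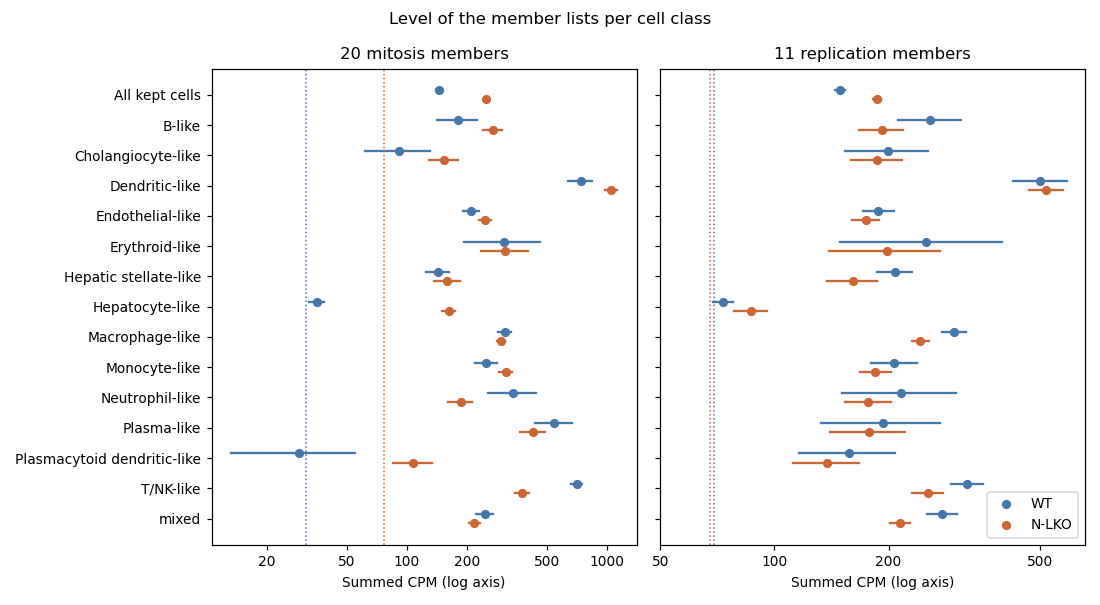
Summed CPM (log axis) of the 20 mitosis members (left) and the 11 replication members (right) in each cell class, WT in blue and N-LKO in orange, with 95% counting intervals and, as dotted lines, the level of each library's barcodes below 500 UMIs. The mitosis level is apart between libraries in hepatocyte-like cells (35.6 and 162.1) and, in the other direction, in T/NK-like cells (706.1 and 376.2).

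The makeup of the libraries entered the sum over all cells. Hepatocyte-like cells were 47.5% of WT cells and 10.4% of N-LKO cells. The N-LKO class levels were then weighted by the WT shares of UMIs. For this, hepatocyte-like cells and both unnamed hepatocyte-scored clusters were taken as a single class. The mitosis sum of N-LKO became 204.3 CPM in place of 248.6, a 1.41-fold in place of a 1.72-fold difference. The replication sum became 148.1 CPM, 0.99-fold of WT, in place of 1.25-fold. At these class shares the replication sum was near that of WT and the mitosis sum stayed higher. The clusters inside the merged hepatocyte class were not held at equal shares, and their part was not tested.

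**Figure D4:**
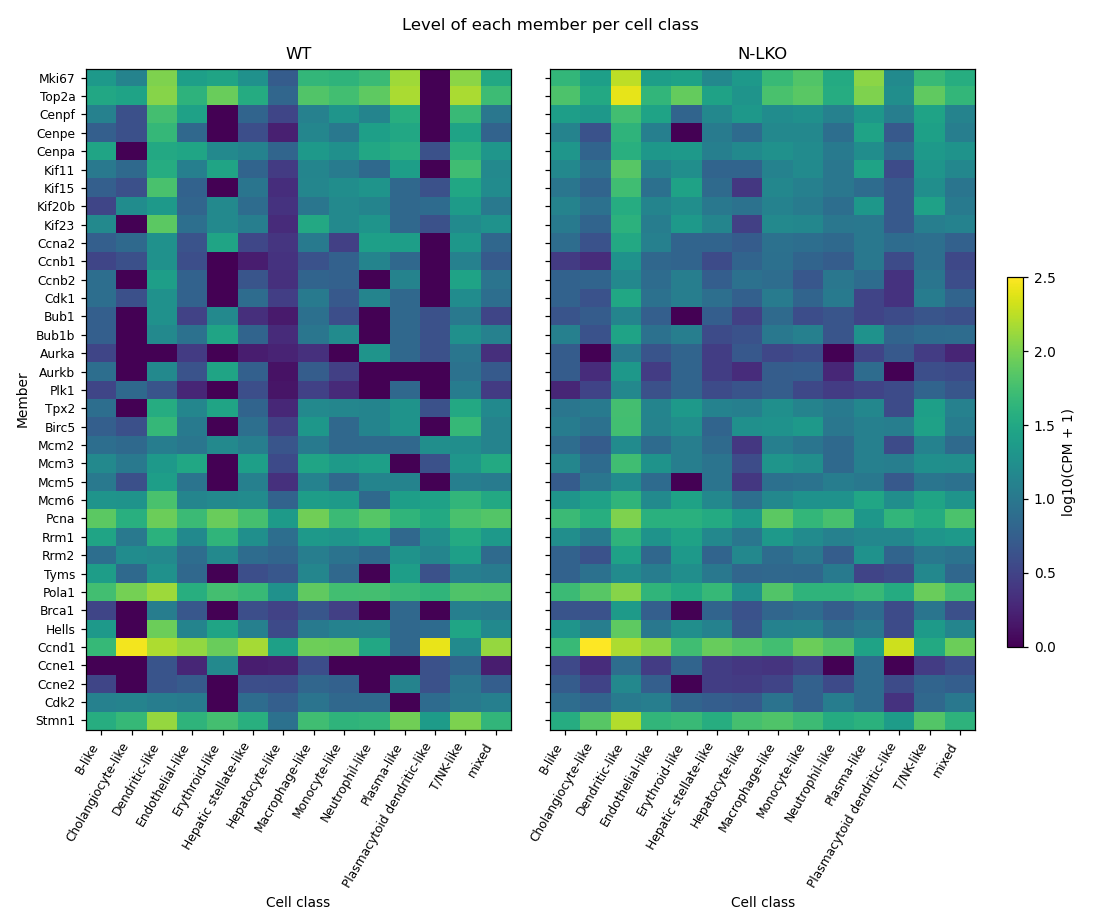
Level of each member (rows) in each cell class (columns) as log10 of CPM plus 1, WT on the left and N-LKO on the right. Mki67 and Top2a are brightest in dendritic-like, T/NK-like and plasma-like columns, and the hepatocyte-like column is among the darkest in WT.

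Cells with mitosis transcripts were counted as those with UMIs of at least 2 different mitosis members after each cell was thinned to 1000 UMIs, since depth differed. Over all kept cells these were 363 of 18433 in WT (1.97%) and 726 of 19850 in N-LKO (3.66%), which is 1.69 percentage points more (1.36 to 2.02). In hepatocyte-like cells they were 19 of 8747 (0.217%, 0.131 to 0.339) and 53 of 2073 (2.56%, 1.92 to 3.33), a difference of 2.34 points (1.73 to 3.12). Unthinned, the hepatocyte-like shares were 0.469% and 4.78%. Neutrophil-like cells had shares of 5.17% (1.92 to 10.9) in WT and 1.76% (0.943 to 3.00) in N-LKO at median depths of 1261 and 1360 UMIs, beside 1592 and 1965 UMIs in hepatocyte-like cells. They give no background level, since Ngp, Camp and Ltf, genes of immature granulocytes, were among the leading genes of their cluster, and no class was taken to lack these transcripts.

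T/NK-like cells had 83 of 1017 (8.16%) in WT and 68 of 1183 (5.75%) in N-LKO, a difference of -2.41 points (-4.61 to -0.29). At a minimum of 500 UMIs it was -0.19 points (-0.87 to 0.48). Each cell was thinned to 500 UMIs there, so filter and thinning depth changed together. Dendritic-like cells had the highest shares, 14.6% in WT and 19.1% in N-LKO, with a difference of 4.45 points whose interval (-2.45 to 10.5) included 0. Endothelial-like cells differed by 1.58 points (0.50 to 2.63), from 2.41% to 3.99%. For macrophage-like cells the difference was -1.02 points (-2.29 to 0.13). Plasmacytoid dendritic-like cells had 0 of 223 in WT, which by a floor of 3 cells allows a share of up to 1.35% (exact upper bound 1.64%), and 1.22% in N-LKO.

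**Figure D5:**
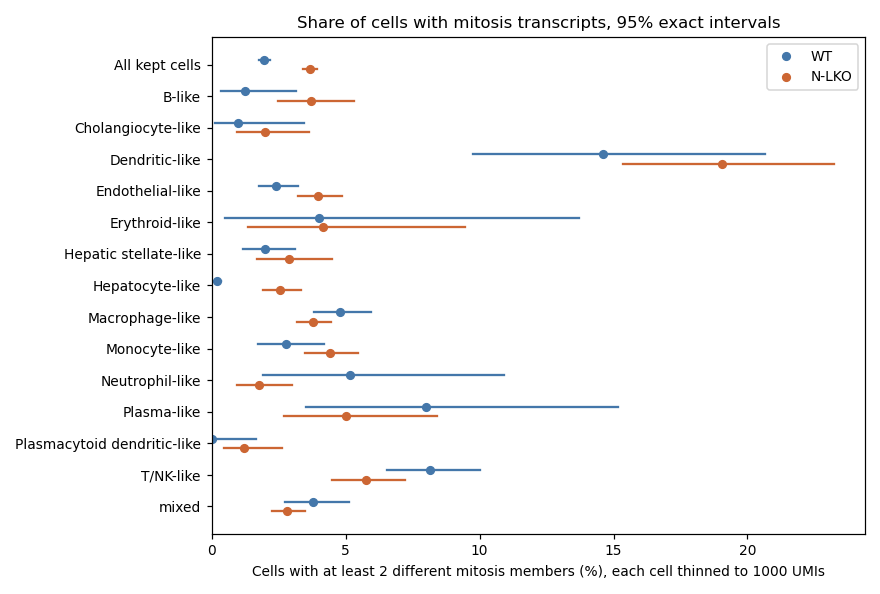
Share of cells (%) with at least 2 different mitosis members in each cell class, each cell thinned to 1000 UMIs, WT in blue and N-LKO in orange, with exact 95% intervals. Hepatocyte-like cells lie at 0.217% and 2.56%, and the dendritic-like class has the highest shares of both libraries.

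The lineage of such cells, counted without thinning, was spread over many classes. There were 477 in WT and 998 in N-LKO. In WT, 22.6% were macrophage-like, 19.5% T/NK-like, 9.85% endothelial-like and 8.60% hepatocyte-like, although hepatocyte-like cells were 47.5% of all. Clusters with markers of more than 1 type took 62 such cells in WT and 123 in N-LKO (12.3%). In N-LKO, 18.8% were macrophage-like, 12.1% endothelial-like, 9.92% hepatocyte-like, 9.82% dendritic-like and 8.02% T/NK-like, and a further 7.11% lay in the unnamed N-LKO cluster that scored for hepatocyte markers. Dendritic-like cells were 0.966% of WT and 2.04% of N-LKO cells but 6.50% and 9.82% of the cells with mitosis transcripts.

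Genes that did not choose these cells were then read in them. In the 99 such N-LKO hepatocyte-like cells, the replication members stood at 270.8 CPM (213.4 to 338.9), against 69.7 CPM in cells of the class with no mitosis member. The 41 such WT cells had 204.8 CPM (121.4 to 323.6), against 72.2 CPM. In T/NK-like cells the same reading was 1131 CPM against 187.1 CPM in WT and 927.9 against 165.7 CPM in N-LKO, so replication transcripts went with mitosis transcripts in both classes. The further mitosis genes were at 3898 CPM against 205.2 CPM in N-LKO and 1638 against 188.7 CPM in WT hepatocyte-like cells.

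These hepatocyte-like cells kept their markers, at 41380 CPM in N-LKO and 40910 CPM in WT, against 48060 and 47490 CPM in cells with no mitosis member. Ptprc, the leukocyte antigen CD45, was at 114.0 CPM against 63.1 CPM in N-LKO and 91.0 against 48.6 CPM in WT. The median doublet score was 0.060 against 0.032 in N-LKO and 0.131 against 0.118 in WT, and the median depth 2560 against 1907 UMIs in N-LKO. The part of leukocyte RNA or doublets in these cells was not tested.

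Ratios in these libraries varied with the genomic span of genes, so the members were read beside genes of like span. Over all kept cells the median log2 ratio of all genes was 0.10 for genes under 10 kb, 0.24 from 10 to 30 kb, 0.46 from 30 to 100 kb and 0.64 above. The mitosis members had medians of 0.72, 0.82 and 0.79 in the first 3 bins. In hepatocyte-like cells they had 1.83, 2.30 and 1.72, beside 0.25, 0.08 and -0.04 over all genes. In T/NK-like cells they had -0.83, -1.07 and -0.81, beside -0.55, -0.13 and 0.27. The 6 replication members of 10 to 30 kb had medians of 0.27 over all kept cells, 0.32 in hepatocyte-like and -0.42 in T/NK-like cells. In these 3 bins the medians of the mitosis members lay above those of all genes in hepatocyte-like cells and below them in T/NK-like cells. The T/NK-like bin under 10 kb held 4 mitosis members, and none lay above 100 kb. Single members varied, and Kif20b in T/NK-like cells was at -0.06 after the median of its bin was subtracted. The part of gene span in these ratios was not tested.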

How the data were processed

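Single-cell RNA was read in 1 WT and 1 N-LKO library (10x 3′ chemistry, version 3). The authors aligned reads and counted UMIs with Cell Ranger 7.1.0, per the file headers, and deposited raw counts, whole UMIs of each gene in each barcode, with no scaling. The submitters' notes name the build mm9 and Seurat, while whether intron reads were counted was not given in the sources used here. Each sample's group came from its genotype label.

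The deposited tables held 100171 WT barcodes with 85522287 UMIs (median 657) and 90147 N-LKO barcodes with 87575064 UMIs (median 774). Barcodes with at least 1000 UMIs, at least 400 genes and at most 30% mitochondrial UMIs were kept, and doublets were scored by Scrublet in scanpy 1.11.5 (expected 10%). Those with a score of 0.25 or more were removed, 1725 in WT and 2364 in N-LKO. Counts were scaled to 10000 per cell, 2000 variable genes without the 199 genes of the cell cycle lists gave 30 principal components, and a graph over 20 neighbors was partitioned by leidenalg 0.10.2 at resolution 0.3. Clusters were named "X-like" from 14 marker lists, with score thresholds set after seeing the data (a score of at least 0.2 and 3 markers raised 2-fold). 4 clusters stayed mixed and 2 unnamed. Names were rebuilt here, so a difference from the study may come from them.

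UMIs were summed per class and library, and CPM has exact Poisson, ratios exact conditional binomial, shares exact Clopper-Pearson and differences of shares Newcombe 95% intervals, for counting error only. No test across samples was possible and no p-value was computed. A gene was measured in a class at 20 or more UMIs over both libraries, and 2-fold calls were set beside the share over all measured genes. The scripts were checked on simulated data. Named genes were all members past 2-fold with intervals excluding 0, Mki67, Top2a, Cdk1, Ccnb1, Ccnd1, Pcna and Stmn1 in any case, the 3 highest and 3 lowest genes of each pathway list in all kept and in hepatocyte-like cells, and Cdkn1a, Trp53, Rb1, Ccnd2, Ccnd3, Cdk4 and Cdk6. Other members, and genes that lead clusters, are named from their values. Some genes that these rules name are not reported here. The members and lists were chosen with earlier results of these data known. Gene spans came from GENCODE vM21, where 32235 genes matched.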

Additional observations from a re-analysis of the deposited data

Results flagged for a closer look

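The summed mitosis level differed in direction between cell classes under the same contrast of N-LKO with WT. The log2 ratio was 2.19 in hepatocyte-like cells, and it was -0.91 in T/NK-like cells and -0.88 in neutrophil-like cells, each with a counting interval that excluded 0. The difference between these classes was not tested, since each rests on 1 library per group. The hepatocyte-like ratio compares mostly cluster 0 in WT (8147 cells) with mostly cluster 5 in N-LKO (2001 cells). Within cluster 5 the mitosis sum was 149 CPM (101.3 to 211.6) in WT and 163.1 CPM (151.5 to 175.4) in N-LKO. The neutrophil-like ratio rests on 55 WT UMIs, and 6 of 116 WT cells held at least 2 mitosis members. The size of the T/NK-like ratio changed with the cell filter.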

How the results depend on the processing

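No paired analysis was possible because each group had 1 library. The fixed alternatives and 3 chosen after seeing the data (both unnamed clusters added, hepatocyte-like cluster 5 alone, shared barcodes removed) gave 284 values of 28 results, of which 270 kept the direction. Member counts and lineage percentages could only keep their sign or fall to 0. For counts, list ratios, shares and lineage percentages, 84 values stayed near the main value, 42 moved and 4 reversed. For single genes these numbers were 121, 26 and 7. Moved means outside the main counting interval or, for counts, past a set factor. Leaving out shared barcodes moved no result by more than its counting interval. Over all kept cells, the number of members 2-fold higher was 0 with at most 10% mitochondrial UMIs, 3 when mitochondrial and the 50 most abundant genes left the total and 0 when centred on all genes. The mitosis ratio there was 0.91 and 0.92 at minima of 500 and 2000 UMIs, 0.21 at 10% mitochondrial, 0.70 without abundant genes and 0.44 centred. The replication ratio was -0.239, 0.24 and -0.021 under the last 3. At 10% mitochondrial the ratios of Ccnd1 and Pcna were -0.45 and -0.30, and Pcna centred was -0.20. In hepatocyte-like cells, 10% mitochondrial gave 5 members higher, 1.73 for mitosis, -0.063 for replication and -1.88 for Cdk1. Cluster 5 alone, with 108 WT cells, gave 5 members, 0.11 for mitosis, -0.18 for replication, -0.016 for Mki67, -1.20 for Top2a, -1.07 for Ccnb1 and 0.60 points for the share, which rests on 2 WT cells in this random thinning and on 1 in that of the whole class. With both unnamed clusters, mitosis was 1.98, replication 0.47 and the hepatocyte-like part of N-LKO cells with mitosis transcripts 17.03%. In T/NK-like cells, members 2-fold lower were 1 at 500 UMIs, 14 without doublet removal, 18 with cell cycle genes kept, 10 after subtracting free RNA, 10 with no minimum and 2 at 50 UMIs per gene. The mitosis ratio was -0.49 at 500 UMIs and -1.23 with cell cycle genes kept, and the share differed by -0.19 points at 500 UMIs. Dendritic-like ratios were 0.11 at 2000 UMIs, 1.27 at 10% mitochondrial and 0.27 with cell cycle genes kept. The share differed over all kept cells by 0.98 points at 500 UMIs, 3.73 at 2000, 1.32 at 10% mitochondrial, 1.03 with 3 members, 3.57 with 1 member and 2.44 unthinned. In hepatocyte-like cells it differed by 1.11, 3.27, 1.59, 1.49, 3.97 and 4.31 points, and 3.25% of WT cells with 3 mitosis members were hepatocyte-like. The causes were not tested.

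Dendritic-like cells were not found at 500 UMIs, and T/NK-like cells neither at 2000 UMIs nor at 10% mitochondrial. Free RNA was subtracted at shares of 51.53% in WT and 53.64% in N-LKO for T/NK-like cells, and 37.75% and 31.85% for dendritic-like cells. Subtraction gave no value for hepatocyte-like or all kept cells, so the part of free RNA in their results was not tested. Mitosis members had few UMIs per cell and 5 to 98 per gene in hepatocyte-like cells of either library, which limits single genes more than sums.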

Other observations

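In the N-LKO library a cluster of 2066 cells, with 1 WT cell beside them, scored highest for hepatocyte markers but had too few of them raised to be named. It was led by Gm31508, Pdzrn3 and Neat1. Its mitosis members summed to 143.0 CPM and its replication members to 123.1 CPM, the latter above the 86.7 CPM of N-LKO cells in cluster 5. Ccnd1 was at 26.4 CPM and Stmn1 at 9.80 CPM there, against 68.1 and 57.4 CPM in cluster 5. Mki67 was at 14.3 CPM and Top2a at 15.3 CPM. The share of cells with at least 2 mitosis members, thinned to 1000 UMIs, was 2.23% (1.64 to 2.96), beside 2.55% (1.90 to 3.34) in N-LKO cells of cluster 5. Cdkn1a was at 57.6 CPM in the unnamed cluster, 146.3 CPM in N-LKO cells of cluster 5, 91.4 CPM in WT cells of cluster 5 and 14.8 CPM in WT cells of cluster 0.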
